A study of Mus musculus with 10 samples.

Results

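To follow circular RNAs (circRNAs) through the first postnatal week of the mouse retina, the libraries of postnatal day 7 (P7) were compared with those of postnatal day 1 (P1). Whole retinae of C57BL/6 mice, with no genetic change or treatment given in the labels, were sequenced as ribosome-depleted total RNA in 2 libraries per age, and the labels do not say how many animals went into a library. Libraries of E18.5, P14 and P30, also 2 per age, entered the fit so that the spread between libraries was estimated over 5 ages. Described here are the 2587 circRNAs, of 9029 listed in all, that stood above 0 in at least 1 of the 4 libraries of P1 and P7. Of these, 572 carry a database ID and 2015 are named by chromosome, position and strand on the mm9 build.

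A circRNA forms when the spliceosome joins the end of an exon to the beginning of the same or an earlier exon, which closes the RNA into a ring. Having no free ends, such rings resist exonucleases, and in the nervous system they tend to build up once cells have stopped dividing. In the mouse retina the days between P1 and P7 are when the last progenitors leave the cell cycle and rods, bipolar cells and Müller glia mature, while ganglion cells, cones, horizontal cells and most amacrine cells were born earlier. A circRNA is recognized by reads across its closing junction, and 1 gene can give several circRNAs that use different exons. The values here are estimated counts in steps of 0.5, and how they were derived from such reads is not given. The table pairs no name with a gene, and the annotation at hand is of another build (GRCm38), so the circRNAs are given by ID or mm9 position and not by host gene. For the same reason, and because the table holds no linear transcripts, the tissue label could not be checked against marker genes of retinal cells.

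The number of circRNAs listed differed between the ages by about as much as between the libraries of 1 age, while their levels were more alike within an age. The total was 9092 and 8601.5 counts in the P1 libraries and 9611 and 7426 in the P7 libraries. The number of circRNAs above 0 was 1121 and 1142 at P1 and 1212 and 996 at P7, so the P7 libraries lay on either side of both P1 libraries. The P7 library with fewer circRNAs was also the one with the lower total. With all 4 libraries brought to the same total, the mean number was 1038 ± 30.2 (SD, n = 2) at P1 and 1033 ± 51.8 (SD, n = 2) at P7. With 2 libraries against 2 an exact two-sided permutation test cannot give a p below 0.33, so no single value per library was tested. Over the 327 circRNAs with enough counts for the test of levels, Pearson's r of log2(CPM + 50) was 0.67 between the P1 libraries and 0.60 between the P7 libraries, and it ran from 0.43 to 0.48 for the 4 pairs of different age. CPM here is a count scaled to a library total of 1000000 listed counts, and circRNAs of 1 library share its depth.

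The makeup of the counts shifted slightly, in part through circRNAs not listed in every library. CircRNAs with a database ID took 55.4% ± 1.06 (SD, n = 2) of the counts at P1 and 53.5% ± 0.180 (SD, n = 2) at P7. The 10 most abundant circRNAs over the 4 libraries took 16.1% ± 0.131 (SD, n = 2) at P1 and 17.0% ± 0.231 (SD, n = 2) at P7. Among them mmu_circ_0001878 went from a mean of 13129 CPM at P1 to 30037 CPM at P7. Of the 10, 2 were higher and 4 lower at P7 without overlap, so the share does not show a common rise. Among circRNAs named by position, the span between the joined ends at which the cumulated counts reach 50% was 8755 ± 31.8 bp (SD, n = 2) at P1 and 8401 ± 313 bp (SD, n = 2) at P7. For all 3 measures the P1 libraries did not overlap the P7 libraries, with shares that moved by 1 to 2 percentage points and spans that differed by about as much as the P7 libraries did among themselves. Over circRNAs above 0 in all 4 libraries the directions of the database share (73.6% at P1 and 74.0% at P7) and of the span (7044 bp at P1 and 7181 bp at P7) turned, and the libraries overlapped.

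Most members were rare and were listed in a single library. Of the 2587, 1571 were above 0 in 1 of the 4 libraries only, and 309 (11.9%) were above 0 in all 4. The 309 held 59.9% of the counts at P1 and 59.3% at P7. In each library between 60.5% and 64.4% of the circRNAs listed had at most 5 counts. The libraries of P1 shared 551 circRNAs, which is 49.2% of the list of replicate 1 and 48.2% of that of replicate 2. Those of P7 shared 520, which is 42.9% and 52.2% of their lists. Across the ages a pair of libraries shared between 469 and 522, so the lists of different ages overlapped nearly as much as those of 1 age. Listing in 1 library is therefore a weak mark of age in these data.

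The 899 circRNAs listed at P1 only and the 875 listed at P7 only accordingly contained many single sightings. More stable were the 103 circRNAs above 0 in both P1 libraries and neither P7 library, and the 100 above 0 in both P7 libraries and neither P1 library. These sets differed in the ages at which their circRNAs were otherwise listed. Of the 103 early ones, 47.6% were also listed in at least 1 E18.5 library, against 21.0% of the 100 late ones. At P14 the order was the other way, with 53.4% of the early and 68.0% of the late ones, and at P30 61.2% of the early and 82.0% of the late ones were listed. Of the 309 circRNAs above 0 in all 4 libraries, 89.6% were listed at E18.5, 93.5% at P14 and 93.5% at P30. These shares are descriptions, since circRNAs of 1 library share its depth and the P30 libraries are the deepest of the series. The late set had a median span of 12451 bp (84 named by position) and the early set one of 7896 bp (67 named by position), and 16.0% of the late against 35.0% of the early set had a database ID.

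**Figure D1:**
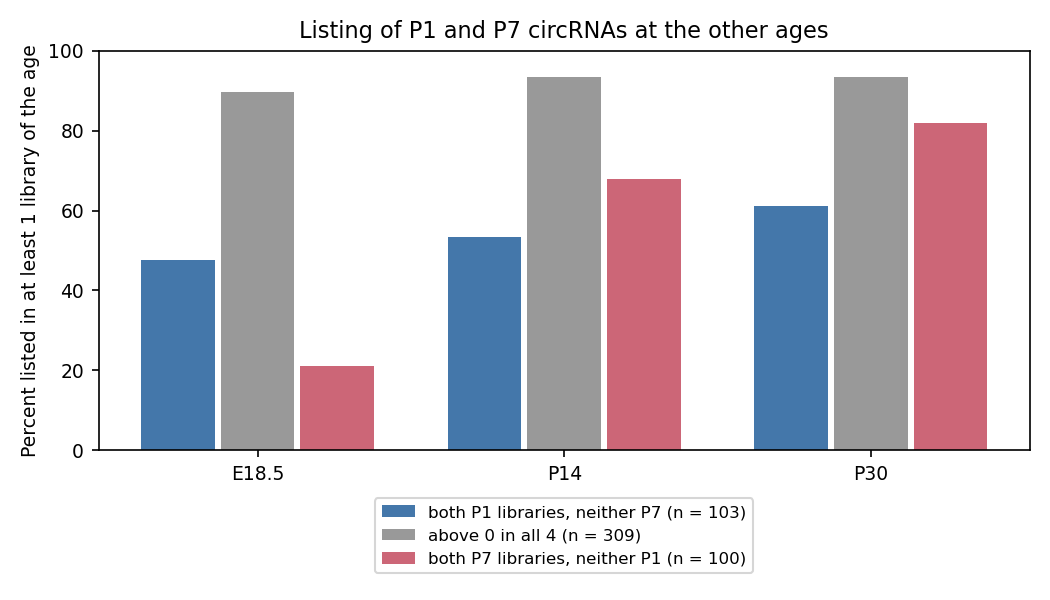
Percent of circRNAs listed in at least 1 library of E18.5, P14 and P30 (y axis), for the 103 circRNAs of both P1 libraries only, the 309 above 0 in all 4 libraries and the 100 of both P7 libraries only. At E18.5 the early set stood at 47.6% and the late set at 21.0%, and at P30 the late set stood at 82.0% and the early set at 61.2%.

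Between P1 and P7 a small number of circRNAs rose and 1 fell. In RNA of whole retinae, more cells of a type and more of a circRNA per cell cannot be told apart. Of 327 circRNAs with enough counts over the 10 libraries, 14 were called (4.28%), 13 higher at P7 (3.98%) and 1 lower (0.306%), by edgeR's quasi-likelihood test at a Benjamini-Hochberg adjusted p under 0.05. Of the 327, 321 are among the 2587 members, and 223 were above 0 in all 4 libraries. The other 2266 members had too few counts to be tested. At an unadjusted p under 0.05, 37 were higher and 17 lower. Without any low-count filter, over 6365 circRNAs, the calls were again 13 higher and 1 lower, of which 12 were among the 14.

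Of the 327, 81 (24.8%) had both P7 libraries above both P1 libraries and 74 (22.6%) had both below, in CPM. All 14 called circRNAs were among these, which adds no support, because the same libraries gave the calls. CircRNAs listed at 0 in both libraries of an age entered the test unevenly: 19 were at 0 at P1 and above 0 at P7, and 6 the other way. The 7 called circRNAs at 0 in both P1 libraries did not pass the filter with P1 and P7 alone. They were tested only with the other ages in the filter. The number of rises against falls therefore depends on the filter and is not read as a direction of all circRNAs.

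**Figure D2:**
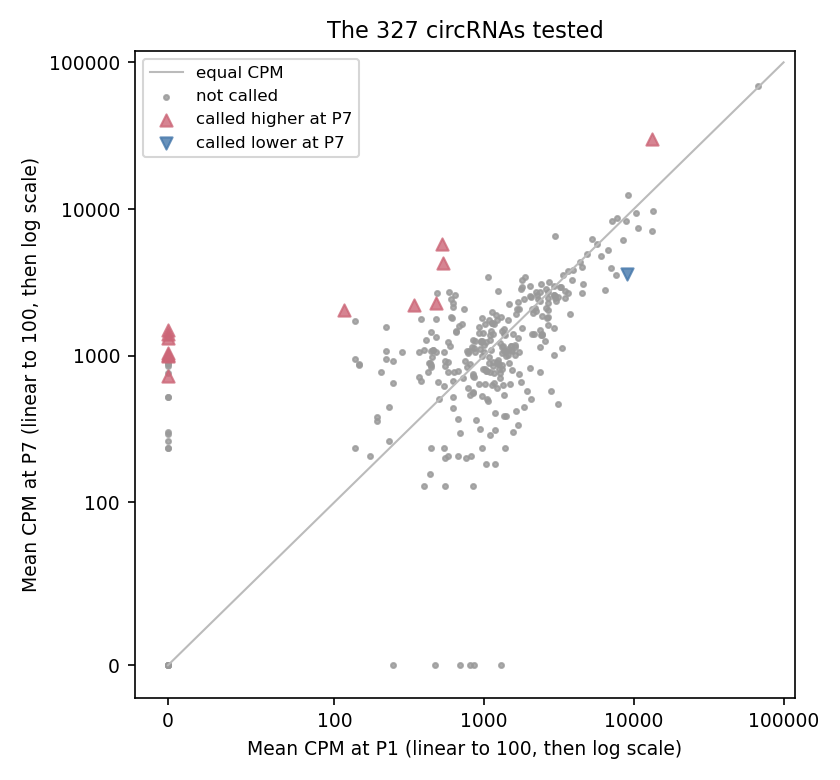
Mean CPM at P7 (y axis) against mean CPM at P1 (x axis) for the 327 circRNAs tested, linear up to 100 and logarithmic above, where each point is 1 circRNA and the line marks equal CPM. The 13 circRNAs called higher at P7 lie above the line, 7 of them at 0 CPM at P1, and the 1 called lower lies below it.

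The most abundant circRNA that rose was mmu_circ_0001878. It had 114 and 118 counts in the P1 libraries and 314 and 203.5 in the P7 libraries. Its share of all counts went from 13129 ± 834 CPM (SD, n = 2) at P1 to 30037 ± 3724 CPM (SD, n = 2) at P7, and both P7 libraries lay above both P1 libraries. The ratio of mean CPM was 2.29, and the fitted log2 fold change was 1.18 (standard error 0.124, adjusted p = 7.05e-05 from edgeR). At E18.5 it had 92.5 and 100.5 counts, or 14051 ± 70.7 CPM (SD, n = 2), near its level at P1, and it was higher in every library from P7 on. This call was lost under 3 of 20 alternatives, among them the fit restricted to the libraries of P1 and P7 (adjusted p = 0.0533 from edgeR) and the one that left out P1 replicate 1 (edgeR adjusted p = 0.107). The highest adjusted p over the 20 was 0.201 from edgeR.

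The largest group of rising circRNAs came from 1 stretch of the plus strand of chromosome 14. The 13387-bp circRNA at chr14:52740148-52753534 had 0 and 9 counts at P1 and 57 and 42 at P7 (log2 fold change 3.45, standard error 0.650, adjusted p = 0.0155 from edgeR). The 649-bp circRNA at chr14:52740148-52740796 had 0 and 2 counts at P1 and 22.5 and 13 at P7 (adjusted p = 0.0155 from edgeR), and the ratio of pooled CPM was 18.4 with an exact 95% interval from 4.81 to 160, which covers counting error only. The 5912-bp circRNA at chr14:52740148-52746059 was listed at 0 in both P1 libraries and had 18.5 and 8 counts at P7 (adjusted p = 0.0241 from edgeR). The 3 share the start at 52740148, so 1 of the joined ends is the same in each and the other differs. All 3 were at 0 in both E18.5 libraries. Only P1 replicate 2 held any of these 3 before P7. Leaving out P1 replicate 1 lowered the fitted log2 difference of the 13387-bp circRNA to 2.48 (edgeR adjusted p = 0.107), while leaving out replicate 2 left it no count at P1.

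A second circRNA of chromosome 14, far from the others at chr14:22445941-22483970 on the plus strand, was at 0 in the libraries of E18.5 and P1. It had 5.5 and 6.5 counts at P7, went to 20 and 29.5 at P14, and reached 67.5 and 97 at P30, or means of 724, 1715 and 2893 CPM (adjusted p = 0.0382 for P7 against P1 from edgeR). Its counts at P7 were the lowest of all calls.

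Chromosome 10 gave a circRNA that was present from the start but scarce. The 2382-bp circRNA at chr10:25161379-25163760, on the plus strand, had 6 and 3 counts at E18.5, 3 and 3 at P1 and 27.5 and 11.5 at P7. Its CPM rose from 339 ± 13.3 (SD, n = 2) to 2205 ± 928 (SD, n = 2), a ratio of 6.50, with a fitted log2 fold change of 2.71 (standard error 0.508, adjusted p = 0.0155 from edgeR). Both P7 libraries stood above both P1 libraries, although they differed from each other, with 2861 and 1549 CPM. It had 244.5 and 209.5 counts at P30, or 8005 ± 982 CPM (SD, n = 2).

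The rises on chromosomes 6 and 1 had no count before P7. On the plus strand of chromosome 6, the 1892-bp circRNA at chr6:125660574-125662465 had 9 and 12.5 counts at P7 (adjusted p = 0.0241 from edgeR) and the 25359-bp circRNA at chr6:125740259-125765617 had 11.5 and 6 (adjusted p = 0.0311 from edgeR). On the minus strand of chromosome 1, the 33611-bp circRNA at chr1:4187615-4221225 had 11.5 and 6.5 counts at P7 and the 31086-bp circRNA at chr1:4187615-4218700 had 7 and 9.5 (adjusted p = 0.0382 for each from edgeR). All 4 were listed at 0 in both libraries of E18.5 and of P1 and were above 0 in every later library. No fold change is given for them, because values in the table are 0 or at least 2 and a 0 may mean a circRNA below that minimum or not called.

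The other 3 that rose carry a database ID. Mmu_circ_0001757 had 6 and 3.5 counts at P1 and 52.5 and 23 at P7 (log2 fold change 2.89, standard error 0.682, adjusted p = 0.0320 from edgeR). Mmu_circ_0001055 had 5 and 3.5 counts at P1 and 17.5 and 20.5 at P7 (log2 fold change 2.11, standard error 0.532, adjusted p = 0.0382 from edgeR). Mmu_circ_0001756 was at 0 in both P1 libraries, had 17.5 and 7.5 counts at P7 (adjusted p = 0.0382 from edgeR), and had 6 counts in 1 of the E18.5 libraries. In all 3 the libraries of the ages did not overlap. For the 6 rises with counts at P1, fitted log2 fold changes ran from 1.18 to 4.01 and their median was 2.80, so among these 6 mmu_circ_0001878 was the smallest rise in fold and the largest in CPM.

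**Figure D3:**
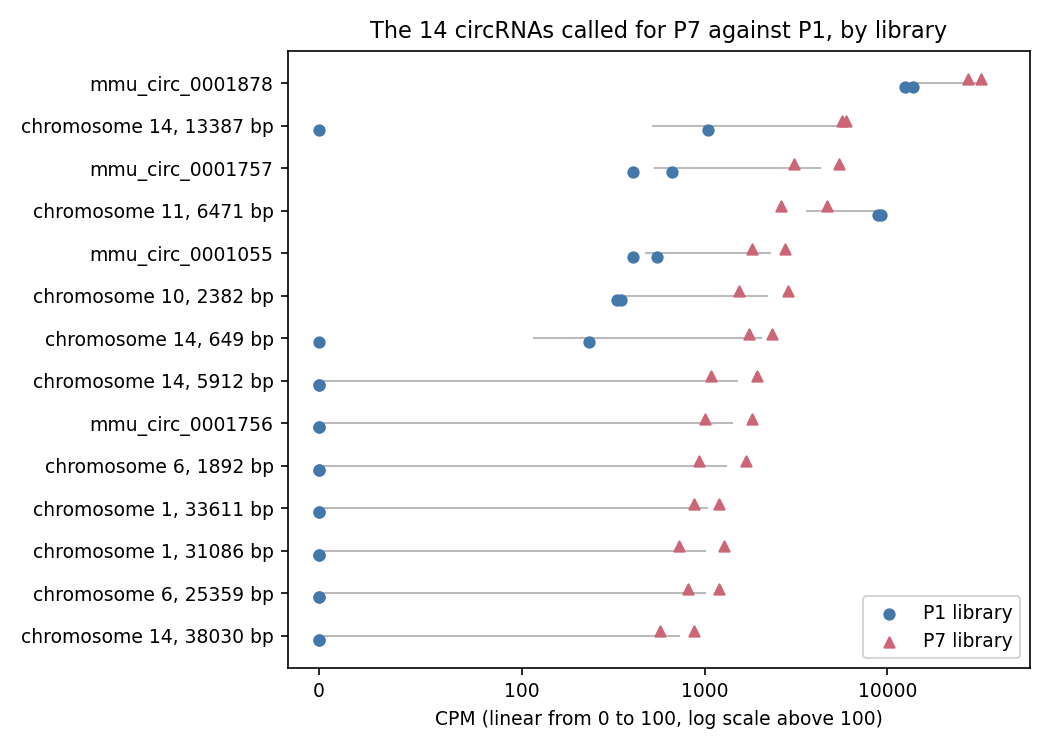
CPM of the 14 called circRNAs (x axis, linear from 0 to 100 and logarithmic above) in each P1 library (circles) and each P7 library (triangles), with a grey line between the means of the ages. In all 14 the P1 and P7 libraries do not overlap, 7 stood at 0 in both P1 libraries, and the 6471-bp circRNA of chromosome 11 is the 1 that lies lower at P7.

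The 1 circRNA that fell lies on the plus strand of chromosome 11. The 6471-bp circRNA at chr11:108295440-108301910 had 84 and 76.5 counts at P1 and 25 and 34.5 at P7, or 9066 ± 244 CPM (SD, n = 2) and 3624 ± 1446 CPM (SD, n = 2). The mean at P1 was 2.50 times that at P7, and the fitted log2 fold change was −1.37 (standard error 0.311, adjusted p = 0.0297 from edgeR). Its P1 libraries lay close together and both stood above the P7 libraries. It had 56.5 and 58.5 counts at E18.5, 18.5 and 25.5 at P14 and 65 and 83 at P30. The P30 libraries are deeper, and its mean there was 2605 ± 413 CPM (SD, n = 2). The P7 libraries had 2601 and 4646 CPM, so the P30 mean lay near the lower of them. CPM leaves out the TMM factors of the fit, and no test compared P30 with P7, so no further fall is read. The call was lost under 11 of 20 alternatives, among them the fit without a low-count filter and the one without P7 replicate 1, and the adjusted p over all 20 ran from 0.00569 to 0.380 from edgeR or DESeq2.

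The 14 calls rest on the spread estimated over all 5 ages. Alternatives kept them unevenly, from 7 of 20 for mmu_circ_0001055 to 17 of 20 for mmu_circ_0001878. The fall of chromosome 11 was kept under 9 of 20, so it was not the least stable call. When only P1 and P7 were fitted, 188 circRNAs, 7 of the 14 among them, could be tested and none passed (33 at an unadjusted p under 0.05, 20 higher and 13 lower, and 21 called by DESeq2 over all ages). Without P1 replicate 1 none of the 14 was called, and without P14 replicate 3, P30 replicate 2 or P30 replicate 3 only 1 was, whereas 25 circRNAs passed without the unnumbered E18.5 library.

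Because several calls shared a splice position, counts were next summed over circRNAs of 1 chromosome and strand that share a start or an end, directly or through others. Such families group circRNAs that use the same splice position and need no annotation. The 9029 names formed 5851 sets, among them 1345 families of at least 2 names and at most 30. Of 369 families and single names tested, 7 were called (1.90%), all of them higher at P7, and at an unadjusted p under 0.05 39 were higher and 12 lower. The filter again ran over all 5 ages. Of the 7, 5 passed it with P1 and P7 alone, and these 5 were called higher in that fit too. The sets of chromosome 6, at 0 at E18.5 and P1, were tested only with the other ages in the filter. Of the 14 circRNAs called singly, 10 belong to these 7 sets.

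The clearest of them was a family on the minus strand of chromosome 1, within chr1:4132693-4302803. Its 30 names had no count in either library of E18.5 or P1. At P7 they summed to 58 and 40.5 counts, or 5744 ± 411 CPM (SD, n = 2), spread over 10 names (adjusted p = 3.00e-05 from edgeR). The P14 libraries held 120 and 261.5 counts of it over 18 names, and the P30 libraries 137.5 and 113.5 over 17 names. Its CPM was highest at P14, with a mean of 12766 ± 3639 (SD, n = 2), and the P30 mean of 4426 ± 659 (SD, n = 2) was below that of P7. CPM leaves out the TMM factors, which in the fit of circRNAs were 1.13 and 1.10 at P7 and 0.806 and 0.788 at P30. The order of P7 and P30 depends on this scaling and is not read as a fall. The family as a whole thus went from no listed circRNA to several at once between P1 and P7. Singly, 3 of its names had enough counts to be tested and 2 of these were called.

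No single ring led this family. At P7 the 33611-bp circRNA held 18.3% of its counts, the 31086-bp one 16.8%, the 67290-bp one at chr1:4153936-4221225 15.2% and the 84823-bp one at chr1:4216692-4301514 14.2%. The end at 4301514 was used by 4 names and held 39.1% of the counts, and the start at 4187615 was used by 2 names and held 35.0%. At P30 these positions held 35.9% and 34.3%. The leading positions of P7 thus led at P30 as well, while the 67290-bp circRNA went from 15.2% at P7 to 3.39% at P30.

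The family of chromosome 14, within chr14:52738871-52778129 on the plus strand, had 0 and 11 counts at P1 and 124 and 71 at P7. Its CPM went from 639 ± 904 (SD, n = 2) to 11231 ± 2362 (SD, n = 2), a ratio of 17.6 (log2 fold change 4.19, standard error 0.577, adjusted p = 0.000336 from edgeR). The large SD at P1 comes from a library at 0, and without that library (P1 replicate 1) the log2 fold change was 3.24. At P7 the start at 52740148 held 89.5% of the counts, shared by 6 names, against 76.5% at P30. The 13387-bp circRNA held 50.8% of the family at P7 and 35.7% at P30, and the 649-bp circRNA held 18.2% at P7 and 29.4% at P30. Later it had a mean of 14073 ± 2980 CPM (SD, n = 2) in the P14 libraries and of 11164 ± 465 CPM (SD, n = 2) in the P30 libraries. In CPM, without TMM factors, the P30 mean was near that of P7.

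The family of chromosome 10, within chr10:25161379-25232887 on the plus strand, had 3 and 3 counts at P1 and 34 and 18.5 at P7 (log2 fold change 3.16, standard error 0.449, adjusted p = 0.000336 from edgeR). Up to P1 all its counts belonged to the 2382-bp circRNA. At P7 this ring held 74.3% of the counts beside 4 longer ones, and at P30 it held 55.5% among 14 names. The family stood higher again later, with a mean of 10783 ± 55.1 CPM (SD, n = 2) in the P14 libraries and of 14415 ± 1831 CPM (SD, n = 2) in the P30 libraries. In contrast to the family of chromosome 14, most of its gain came after P7.

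Chromosome 6 held 2 called families on the plus strand, whose spans share 99 bases. The one within chr6:125658640-125725912 had 9 and 12.5 counts at P7 (adjusted p = 0.0121 from edgeR) and the one within chr6:125725814-125830771 had 11.5 and 6 (adjusted p = 0.0363 from edgeR). Both were at 0 in the libraries of E18.5 and P1, and each consisted of 1 name at P7, the circRNA called singly. With families formed by overlap instead of a shared position they merged into 1, which was called as well. The other 2 of the 7 sets were mmu_circ_0001878 (adjusted p = 4.59e-05 from edgeR) and mmu_circ_0001757 (adjusted p = 0.0302 from edgeR), single names without a position.

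**Figure D4:**
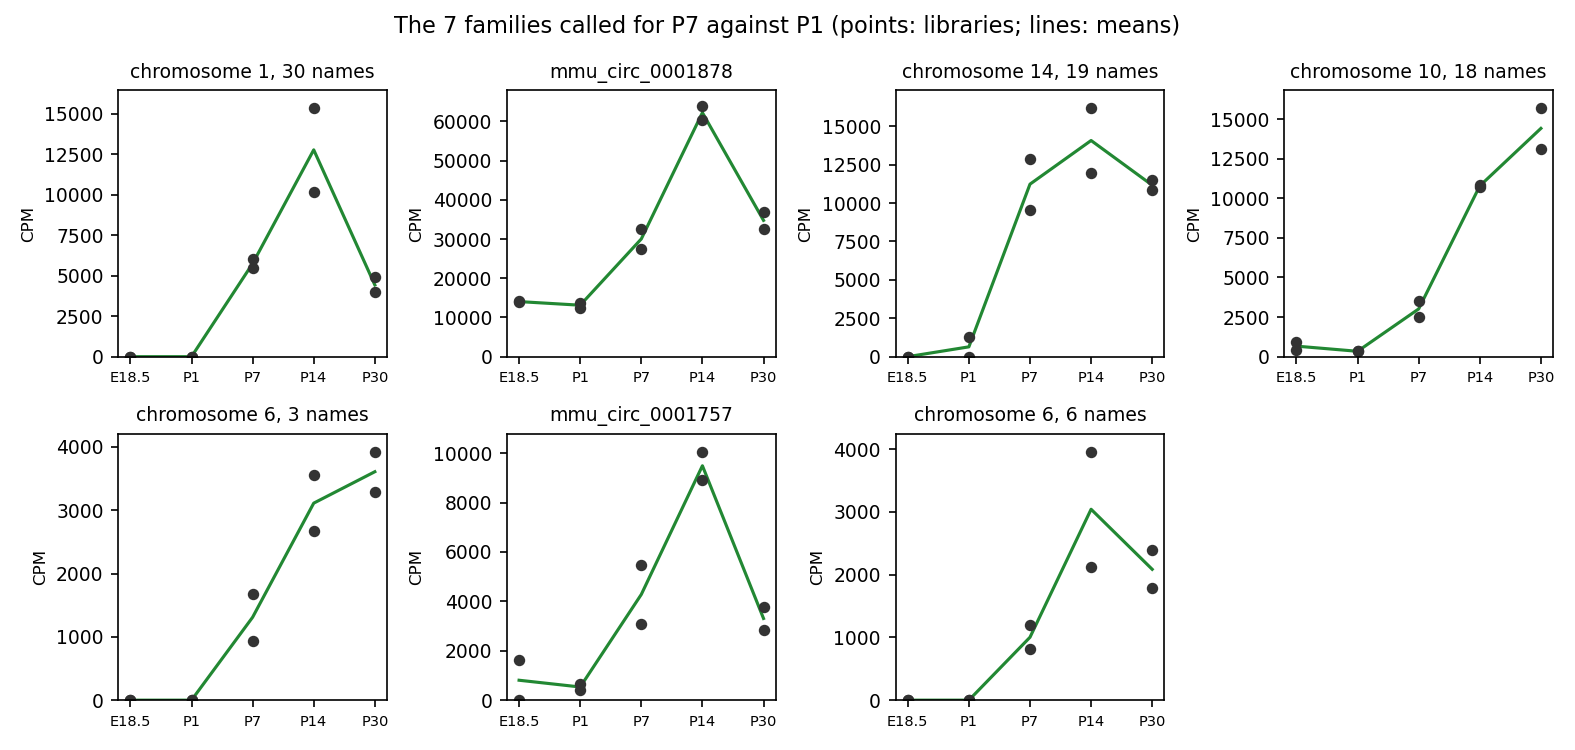
CPM (y axis, from 0, with a scale of its own in each panel) of the 7 called families or single names at the 5 ages from E18.5 to P30, where points are libraries and the line joins the means of the 2 libraries of an age. The means of all 7 are lower at E18.5 and P1 than at P7. In CPM the families of chromosome 10 (14415 CPM) and of 3 names on chromosome 6 are highest at P30, and the others at P14.

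The leading families held under other settings in the fit of families. For mmu_circ_0001878, a single name with the same counts in both fits, the call among circRNAs was lost under 3 of 20 alternatives. With P1 and P7 alone its adjusted p from edgeR was 0.000197 among families and 0.0533 among circRNAs. The families of chromosome 1 and chromosome 10 and mmu_circ_0001878 were called under all 21 alternatives, and the family of chromosome 14 under all 20 in which it was tested, with adjusted p up to 0.00479, 0.0162, 0.0110 and 0.0477 from edgeR or DESeq2. The sets on chromosome 6 and mmu_circ_0001757 were lost when single libraries were left out, for example without P7 replicate 2 (adjusted p = 0.122 for each of the 3 from edgeR), and when a circRNA had to have 10 counts in both libraries of some age to be tested. The remaining 3 single names called among circRNAs missed the threshold in the fit of families, mmu_circ_0001055 and the one at chr14:22445941-22483970 with an adjusted p of 0.0549 and mmu_circ_0001756 with 0.0546 from edgeR.

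**Figure D5:**
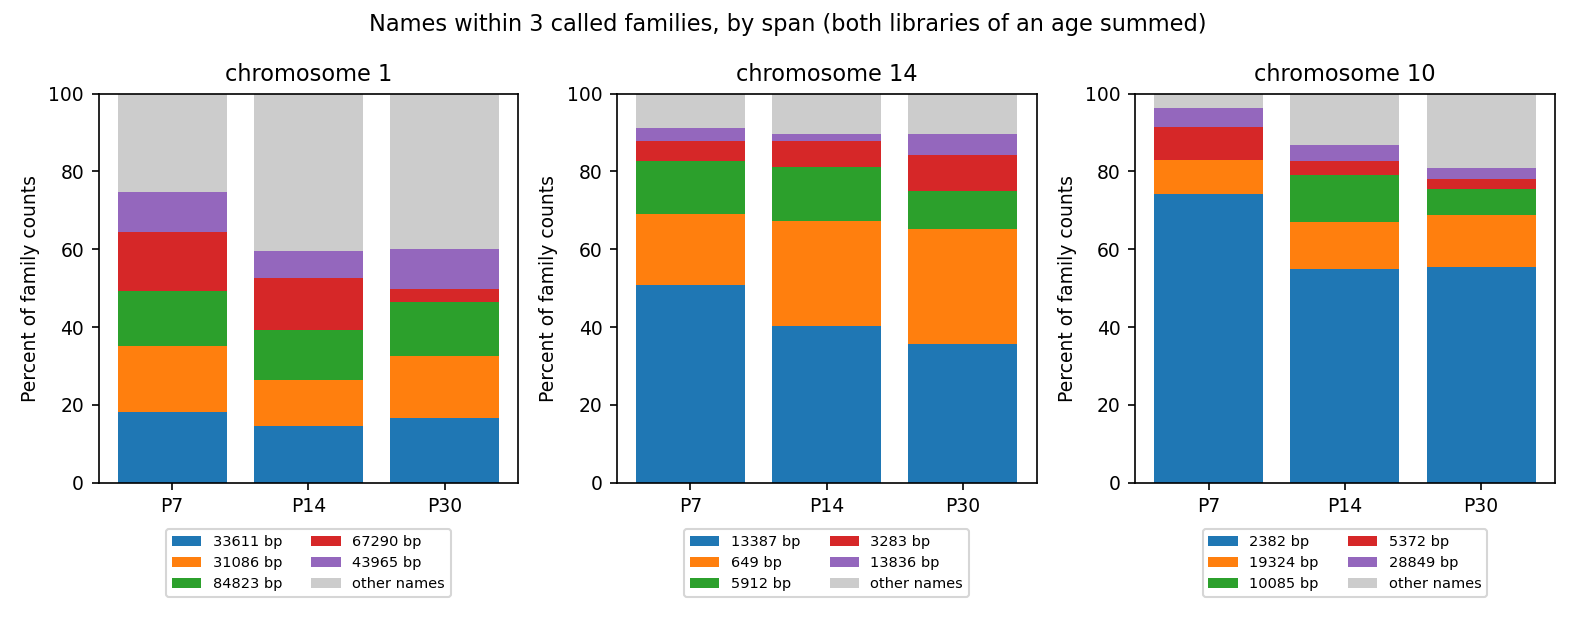
Percent of a family's counts (y axis, both libraries of an age summed) held by its 5 leading circRNAs, named by span, and by all others, at P7, P14 and P30 for the families of chromosomes 1, 14 and 10. On chromosome 10 the 2382-bp circRNA went from 74.3% at P7 to 55.5% at P30, and on chromosome 14 the 649-bp one went from 18.2% to 29.4%.

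The relatives of the circRNA that fell were mixed, and no test compared them with it. Its family of 13 names, within chr11:108295440-108431737, had 141 and 126.5 counts at P1 and 53.5 and 73 at P7, and the sum missed the threshold (log2 fold change −0.93, standard error 0.266, adjusted p = 0.0848 from edgeR). The 33222-bp member at chr11:108359558-108392779 had 30 and 25 counts at P1 and 9 and 0 at P7 (adjusted p = 0.295 from edgeR), and the 97340-bp member had 6 and 6 at P1 and 0 in both P7 libraries. Both thus stood lower at P7. The 12787-bp member at chr11:108379993-108392779 had 12.5 and 19 at P1 and 11.5 and 14 at P7. The 28400-bp member at chr11:108364380-108392779 was at 0 at P1 and had 4 and 19.5 counts at P7. The share of the 6471-bp circRNA in its family was 59.6% and 60.5% in the P1 libraries and 46.7% and 47.3% in the P7 libraries. The ring that led the family at P1 still led it at P7, with a smaller part of it.

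Only 5 families had at least 20 counts in each of the 4 libraries and more than 1 name above 0, and in 3 of them the same circRNA led in all 4 libraries. Beside the family of chromosome 11, the clearest shift was on the minus strand of chromosome 3, where the circRNA at chr3:26032164-26032974 held 81.4% and 67.4% of its family at P1 and all of it in both P7 libraries. These shares were not tested.

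Of the 10 most abundant circRNAs, 6 had ages that did not overlap, 2 higher and 4 lower at P7, and 1 of the 6 was called. Over all 327 tested, 24.8% were higher and 22.6% lower without overlap, so such a count is not particular to abundant circRNAs. Mmu_circ_0000723, the most abundant of all, had 628.5 and 568 counts at P1 and 680 and 494 at P7, which is 6.91% and 6.60% of the library at P1 and 7.08% and 6.65% at P7. Its CPM was 67581 ± 2186 (SD, n = 2) at P1 and 68638 ± 2991 (SD, n = 2) at P7, and the fitted log2 fold change was 0.00 with a standard error of 0.0845. Its level at P7 could not be told from that at P1. Mmu_circ_0001878 was the one called. The other 9 had ratios of mean CPM, P7 over P1, between 0.533 (mmu_circ_0000377) and 1.36 (mmu_circ_0001350).

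Among abundant circRNAs that missed the threshold, several had libraries that did not overlap. Mmu_circ_0000377 had 137 and 99.5 counts at P1 and 50.5 and 66.5 at P7 (log2 fold change −0.95, standard error 0.285, adjusted p = 0.0865 from edgeR). Mmu_circ_0001471 had 75.5 and 59.5 counts at P1 and 27.5 and 31.5 at P7 (log2 fold change −1.11, standard error 0.346, adjusted p = 0.0913 from edgeR), and mmu_circ_0001335 had 53 and 61 and then 26 and 21.5 (log2 fold change −1.21, standard error 0.424, adjusted p = 0.139 from edgeR). At P30 mmu_circ_0001471 had 5.5 and 3.5 counts, or 159 ± 52.0 CPM (SD, n = 2), and mmu_circ_0001335 had 7.5 and 27, or 605 ± 477 CPM (SD, n = 2). In the other direction mmu_circ_0000595 had 23.5 and 29 counts at P1 and 52 and 57 at P7 (log2 fold change 1.09, standard error 0.342, adjusted p = 0.0916 from edgeR), and 336.5 and 356 at P30. For mmu_circ_0001311 and mmu_circ_0001350, also without overlap, the log2 fold changes were −0.47 and 0.43 (adjusted p = 0.388 and 0.339 from edgeR).

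CircRNAs present in both libraries of 1 age and absent from the other were mostly near the lower end of the counts. Of those at 0 in both P1 libraries, the ones with the most counts in both P7 libraries included circRNAs given above. These were the 1892-bp circRNA of chromosome 6, the 5912-bp one of chromosome 14 and mmu_circ_0001756. The others were chr12:90425466-90431651 on the plus strand, with 13 and 10 counts, and chr13:102471402-102479697 on the minus strand, with 7.5 and 11.5. The one of chromosome 12 was tested and not called (adjusted p = 0.178 from edgeR), and it had 9 and 8 counts at P14 and 4.5 and 0 at P30, or means of 617 CPM at P14 and 80.1 CPM at P30 against 1350 CPM at P7. The one of chromosome 13 was at 0 in both P30 libraries and had too few counts over the series to be tested.

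In the reverse direction the counts were as low, and none of the 5 leading circRNAs, ranked by the smaller count at P1, could be tested. Another 6 at 0 in both P7 libraries were tested, and none was called. The circRNA at chr6:47501731-47508293 on the minus strand had 11.5 and 8.5 counts at P1 and that at chr2:118902672-118907361 on the plus strand had 8 and 9, and both were at 0 in both P7 libraries. Mmu_circ_0000400 had 8 and 8 counts at P1 and mmu_circ_0001614 had 8 and 6.5. The one at chr19:57703575-57731732 on the plus strand, with 13 and 6.5 counts at P1 and none at P7, had 14.5 and 15 at P30. A 0 at P7 therefore did not always last. A circRNA with at least 10 counts in 1 library of an age stood at 0 in the other in 22 of 245 cases at P1 and in 25 of 248 at P7, with up to 24 and 41 counts beside a 0, so a 0 in 1 library says little by itself.

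In CPM, most of the circRNAs that had risen stood higher at P14 than at P7, and at P30 they were divided. All 13 were above 0 in both P14 and both P30 libraries. Of the 13, the 7 at 0 in both P1 libraries were tested only with the other ages in the filter, so their later counts are not independent of their selection. In 12 the mean CPM at P14 was above that at P7, and in 10 both P14 libraries stood above both P7 libraries. At P30 the mean CPM was above that at P7 in 7 and below it in 6. Among the latter was the 13387-bp circRNA of chromosome 14. It had 5793 CPM at P7, 5478 CPM at P14 and 3983 CPM at P30. The TMM factors, which CPM leaves out, were 1.13 and 1.10 in the P7 libraries. In the later libraries they ran from 0.788 to 0.881, so applying them would raise the later values relative to P7. The division at P30 and the order of ages for the 13387-bp circRNA thus depend on the scaling. No test compared later ages with P7, and no fall after P7 is read. The P7 libraries belong to both steps, so the later values are set beside the earlier ones and were not used as support for them. At E18.5, 8 of the 13 were at 0 in both libraries.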

How the data were processed

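Retinae of 5 ages were sequenced in 2 libraries each, and the authors deposited 1 table of estimated counts per circRNA, not normalized, with 1 column per library. Its values are multiples of 0.5 and at least 2 where above 0, and 45.6% of the values over 0 are not whole. Trimmomatic and mm9 appear in the submitters' processing notes. What aligned the reads and called the circRNAs is not given in the sources used here. Columns were matched by age and number. The number of 1 column of E18.5 is in no label, and it was used as an unnumbered library. Starts were raised by 1 to count from 1, because 158 file starts equal a GRCm38 exon start after adding 1 and 1 does without, while 160 ends equal an exon end unchanged. No position was converted or assigned to a gene.

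After rounding, circRNAs were kept by filterByExpr (by age, 10 counts and a total of 15 at least), normalized with TMM factors and tested over all 10 libraries with edgeR 4.0.16 (glmQLFit, glmQLFTest, age as factor, 5 residual degrees of freedom) in R 4.3.3. Calls have a Benjamini-Hochberg adjusted p under 0.05. The circRNAs kept held between 60.6% and 62.7% of the counts of the P1 and P7 libraries, and TMM factors there ran from 1.08 to 1.14. Over the P14 and P30 libraries the factors ran from 0.788 to 0.881. CPM values were not scaled by these factors. Family sums were tested the same way. The paper describes its samples of a timepoint as biological replicates, more of them than the 2 libraries per age here. The labels do not say that these libraries came from separate animals. The spread behind the p-values is that between these libraries and may still be technical. Thinned numbers are exact expected values at 7387 counts per library, counting circRNAs with at least 2. Alternatives were DESeq2 1.42.0, other scalings, no filter or another one, fits restricted to P1 and P7, a replicate block, each library left out and, chosen after seeing the data, unrounded values and the removal of features that an age listed at 0 once and at 10 or above once. The script was tested on simulated counts.

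Named circRNAs were all calls, the 10 most abundant over the 4 libraries, the 5 largest differences of mean CPM in each direction without overlap, the called families, and the 5 with the most counts in both libraries of 1 age and 0 at the other. Members of a family and the 5 families compared for their leading circRNA were named after their values were seen. The comparison, rules and lists were chosen with earlier results of these data known. Values per library were computed in Python 3.11.15 with pandas 2.3.3, numpy 2.4.6 and scipy 1.17.1, and plotted with matplotlib 3.10.9.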

Additional observations from a re-analysis of the deposited data

How the results depend on the processing

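Against 14 circRNAs called for P7 against P1, the number was 5 under a filter of 10 counts or more in both libraries of some age, 0 when P1 and P7 were fitted by themselves, and 27 once features listed at 0 once and at 10 or above once in an age were removed, a setting chosen after seeing the data. With 1 library left out it ran from 0 to 25: 0 without P1 replicate 1, 4 without P7 replicate 1, 9 when P7 replicate 2 was left out, 1 without P14 replicate 3, 1 without either of the P30 libraries, and 25 without the unnumbered E18.5 library. Each library left out also loosens the filter, which then tests 483 to 537 circRNAs. Other scalings and unrounded values gave 14 calls and DESeq2 21, all 14 among them. Against 7 families or single names the number was 4 with that filter, 20 after the same removal of features, 10 with DESeq2 or with no filter, and from 4 to 17 with 1 library left out: 14 and 17 without either E18.5 library and 4 without P1 replicate 1, P7 replicate 2 or P14 replicate 3. A replicate block on the 9 libraries with a number left 0 circRNAs and 5 families called, and the block on P1 and P7 by themselves 2 circRNAs and 10 families. The meaning of the numbers is in no source, and the difference between replicates 1 and 2 at P1 had a correlation of 0.0194 with that at P7, which does not show pairing. The cause of these changes was not tested.

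The mean number of circRNAs listed moved at P1 to 1038 when thinned, and to 476 at P1 and 488 at P7 with at least 5 counts. The share under database IDs was 73.6% and 74.0% over circRNAs above 0 in all 4 libraries, which turns its direction, and 51.4% and 48.4% without the 2 most abundant. The median span was 8922 and 8911 bp with each circRNA counted once and 7044 and 7181 bp over those above 0 in all 4, which turns its direction. The 10 most abundant of each library held 16.6% at P1. The log2 fold change of mmu_circ_0001797, −0.16, ran from −0.15 to 0.17 with 1 library left out, and was 0.0026 without E18.5 replicate 1, 0.015 without P1 replicate 2 and 0.17 without P7 replicate 1. That of mmu_circ_0001698, −0.12, ran from −0.40 to 0.42, with 0.038, 0.11 and 0.42 in these settings, and none was called. A circRNA at 0 lies below the minimum of 2 or was not called, so no upper limit was drawn from it, and the number of all reads sequenced is not known here.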
